A study of Homo sapiens with 14 samples.

Results

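Cartilage pellets made from the embryonic stem cell line WA01 (H1, human) were compared between day 30 (5 libraries) and day 21 (4 libraries) of culture in chondrogenic medium, 9 of the 14 libraries of the series. A pellet is a small ball of cells in which stem cell derivatives form cartilage. Members were taken by their titles, CultureD30 and CultureD21, and RNA of the whole tissue was sequenced, so each value is a mean over all cells of a pellet. The groups share the cell line and the medium and differ in time alone, as far as the labels say. Whether replicates were separate cultures is not stated, and the spread behind the p-values, that between these samples, may thus be technical. WA01 is 1 line, so no other donor is represented. All 14 chondrocyte markers listed for the check of the tissue were tested, and none was below 28.3 CPM, the expected counts of a gene scaled to the TMM-adjusted library total, in any of the 9 libraries.

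In growing cartilage, chondrocytes first divide and lay down a matrix of type II collagen and aggrecan. They then leave the cell cycle and enlarge into hypertrophic cells, which make type X collagen and the signal Indian hedgehog. Fibroblast growth factors, bone morphogenetic proteins (BMPs), WNTs and parathyroid hormone-related protein control the pace of these steps. Cartilage has no blood vessels, and its cells rely largely on glycolysis.

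The libraries held 18183776 to 28355272 expected counts at day 30 and 28732688 to 30287388 at day 21. Day 30 replicates 3 to 5 differed from replicates 1 and 2 in a trend with transcript length. With the genes split by length into 5 equal groups, their median log2 difference from the day 21 mean was 0.29 to 0.41 for the shortest genes, against 0.08 and 0.12 in replicates 1 and 2. For the longest genes it was -0.48 to -0.57, against -0.17 and -0.20. Mean fragment length, estimated from the deposited effective lengths, was 193, 162 and 208 bases in replicates 3 to 5 and 260 and 211 bases in replicates 1 and 2. In day 21 replicates 1 to 4 it was 214, 233, 239 and 205 bases. Its part in the length trend was not tested. Counts of changed genes in lists are therefore given with all 5 libraries and with replicates 1 and 2 alone. The library titled day 45 replicate 1, whose treatment label reads 30 days, was kept at day 45. As with all day 45 libraries, it enters the low-count filter, the library scaling, the length and GC offset and the estimate of the spread. It does not enter the mean of day 21 or day 30.

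**Figure D1:**
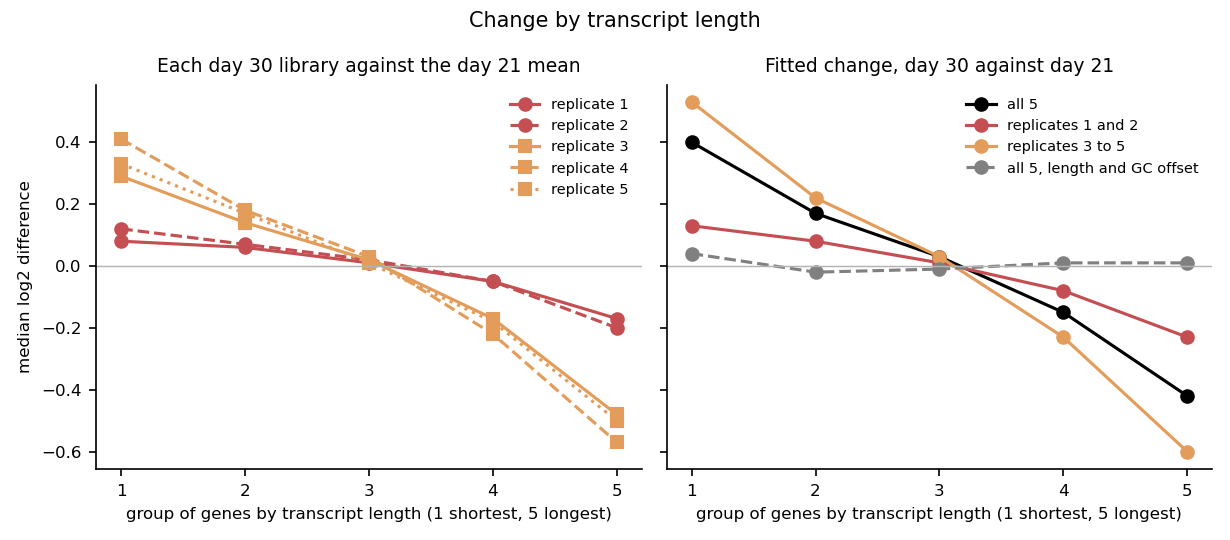
Median log2 difference from day 21 (y axis) in 5 equal groups of genes by transcript length (x axis), for each day 30 library on the left and for the fitted change on the right. The lines of replicates 3 to 5 fall from 0.29 to 0.41 in the shortest group to -0.48 to -0.57 in the longest, those of replicates 1 and 2 from 0.08 and 0.12 to -0.17 and -0.20, and the line fitted with the length and GC offset stays within 0.04 of 0.

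Between day 21 and day 30 the pellets gained transcripts of cartilage matrix, of early hypertrophy and of glycolysis, and lost those of cell division, of FGF signalling and of basement membrane. Changes of single genes and medians of lists are log2 fold changes, day 30 against day 21, with the scaling of the count test unless another is named. In edgeR's quasi-likelihood test 4858 of 17838 genes were higher at day 30 (27.2%) and 4838 were lower (27.1%), at an adjusted p below 0.05. With replicates 1 and 2 alone 3606 were higher (20.2%) and 4028 lower (22.6%). Of the genes called with all libraries, 6713 (69.2%) were called in the same direction with replicates 1 and 2 alone (17.6% of the genes tested higher in both, 20.1% lower in both) and 0 in the opposite direction. These make up 87.9% of the calls with replicates 1 and 2 alone. An offset for length and GC content gave 4880 higher and 4830 lower, of which 7469 matched the calls without the offset and 29 had the opposite sign. With limma on log2(TPM + 1), 1788 were higher and 9032 were lower, and the median over all genes was -0.35, against 0.02 with the TMM scaling. TPM divides by transcript length and does not use the TMM factors, which were 1.23 to 1.31 at day 21 and 0.922 to 1.09 at day 30. The part of these factors in the shift was not tested. Values on the TPM scale are read here relative to the median of -0.35. The counts of gene lists are read against these shares of all genes. The libraries of the days did not overlap for 7560 genes in either direction (42.4%).

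**Figure D2:**
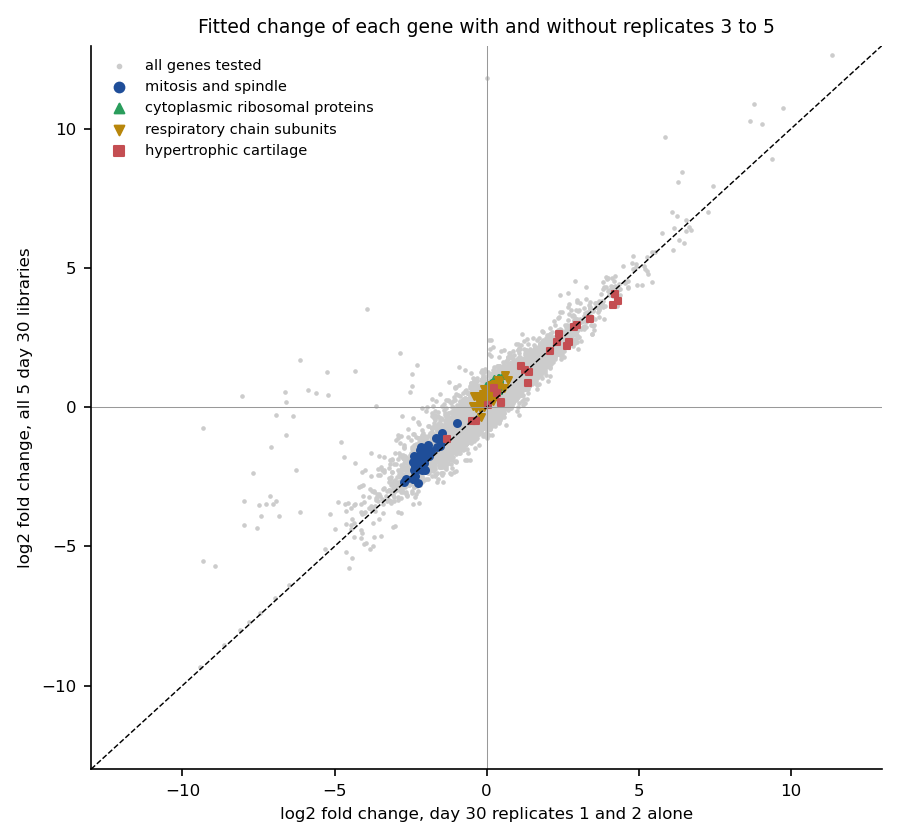
Fitted log2 fold change of each gene tested with all 5 day 30 libraries (y axis) against that with replicates 1 and 2 alone (x axis), with members of 4 gene lists in colour and a dashed line of equal values. Genes of mitosis lie below 0 in both fits, with a median of -1.85 with all libraries against -2.12 with replicates 1 and 2 alone. Most genes of hypertrophic cartilage lie above 0, with medians of 1.48 and 1.38. Ribosomal protein and respiratory chain genes mostly lie above the dashed line, with medians of 0.62 and 0.46 against 0.15 and 0.08.

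The 10 most abundant genes of a library took up 13.7% ± 0.394 (SD, n = 4) of its counts at day 21 and 24.4% ± 4.3 (SD, n = 5) at day 30. Each day 30 library was above each day 21 library (exact permutation test, two-sided, p = 0.0159, the smallest that 4 against 5 libraries allow). The day 30 values were 29.3%, 27.2%, 25.7%, 21.1% and 18.9% in replicates 1 to 5.

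Genes of cell division moved in 1 direction. Of 42 genes of mitosis and the spindle all 42 fell, and of 40 genes of DNA replication 38 fell and 2 did not pass, both with all libraries and with replicates 1 and 2 alone, against 27.1% and 22.6% of all genes tested. The median log2 fold change was -1.85 in the mitosis list (-2.12 with replicates 1 and 2 alone) and -1.38 in the replication list (-1.72). In whole pellets, fewer dividing cells and less of these transcripts per cell cannot be told apart. The upstream sequences of a few of these genes are shown because the lists hold motifs known from cell cycle genes. Background knowledge links the cell cycle homology region (CHR), here searched as TTTGAA or TTCGAA, with a neighbouring CCAAT box to genes of mitosis, and E2F motifs, here TTTGGCGC, TTTCGCGC, TTTCCCGC or TTTGCCGC, to genes of replication. All motifs were searched on both strands in the 250 bases before the start in RefSeq promoters (GRCh38.p14).

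CHR motifs were present in 20 of 36 mitosis promoters matched (55.6%), against 14.6% of all 27305 promoters, 1246 of 12410 of those of genes tested and 2 of 34 replication promoters (5.88%). CCAAT boxes were present in 29 of 36 mitosis promoters (80.6%) and in 20 of 34 replication promoters (58.8%), against 33.0% of all promoters. Both motifs stood in 17 of 36 (47.2%), against 5.24%. E2F motifs were present in 14 of 34 replication promoters (41.2%), against 2.79% of all promoters and 3 of 36 mitosis promoters (8.33%). A match describes the letters and not binding. The 4 mitosis genes with the smallest adjusted p that hold both motifs within 150 bases of the start are printed 5′ to 3′ on the strand of the gene, with CHR motifs and CCAAT boxes (TTCAAA and ATTGG where they lie on the other strand) in capitals. They lie at MKI67 at chr10:128126424-128126573 (minus strand), KIF11 at chr10:92592980-92593129 (plus strand), ESPL1 at chr12:53268149-53268298 (plus strand) and DLGAP5 at chr14:55191586-55191735 (minus strand). In MKI67 the CHR next to the start overlaps a CCAAT box.
MKI67: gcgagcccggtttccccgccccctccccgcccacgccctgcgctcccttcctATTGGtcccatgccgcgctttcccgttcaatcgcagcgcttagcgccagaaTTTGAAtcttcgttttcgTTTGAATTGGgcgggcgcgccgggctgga
KIF11: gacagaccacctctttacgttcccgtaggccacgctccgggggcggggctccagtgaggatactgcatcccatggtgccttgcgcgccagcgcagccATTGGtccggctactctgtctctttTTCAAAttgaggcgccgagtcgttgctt
ESPL1: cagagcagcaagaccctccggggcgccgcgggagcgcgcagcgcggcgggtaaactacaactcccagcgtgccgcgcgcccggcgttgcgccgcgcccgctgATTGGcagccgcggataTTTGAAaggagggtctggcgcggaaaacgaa
DLGAP5: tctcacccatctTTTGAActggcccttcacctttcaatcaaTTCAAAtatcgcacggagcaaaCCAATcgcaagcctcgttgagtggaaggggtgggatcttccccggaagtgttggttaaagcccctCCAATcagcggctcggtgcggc

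The 3 replication genes with the smallest adjusted p and an E2F motif in the same window are UHRF1 at chr19:4909351-4909500 (plus strand), RFC3 at chr13:33817999-33818148 (plus strand) and POLE at chr12:132687343-132687492 (minus strand), with E2F motifs, all read on the other strand, in capitals.
UHRF1: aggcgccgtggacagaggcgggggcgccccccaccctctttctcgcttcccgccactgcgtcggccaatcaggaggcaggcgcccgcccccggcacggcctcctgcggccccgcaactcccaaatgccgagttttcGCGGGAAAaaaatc
RFC3: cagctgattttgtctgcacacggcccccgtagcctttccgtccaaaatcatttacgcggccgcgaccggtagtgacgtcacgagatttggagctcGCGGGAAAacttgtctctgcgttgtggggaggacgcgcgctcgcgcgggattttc
POLE: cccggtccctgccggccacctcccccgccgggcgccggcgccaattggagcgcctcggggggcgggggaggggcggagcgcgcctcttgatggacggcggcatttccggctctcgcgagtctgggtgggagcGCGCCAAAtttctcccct

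MKI67, which encodes the Ki-67 protein of dividing cells (ENSG00000148773, chromosome 10, 128096659 to 128126385, minus strand, GRCh38), was at 192, 183, 193 and 212 CPM at day 21 and 37.4, 25.1, 39, 24.6 and 38 CPM at day 30. All 5 day 30 libraries lay far below the lowest day 21 library, and replicates 1 and 2 were no different in this from replicates 3 to 5 (log2 fold change -2.57 ± 0.15 (SE), adjusted p = 9.5e-10; -1.94 with the length and GC offset). CENPF, a protein of the kinetochore, was at 119.6, 119, 149 and 154 CPM at day 21 and 24.1, 16.9, 20.4, 18 and 24.5 CPM at day 30. It fell by 2.7 on the log2 scale (-2.08 with the offset), with no overlap between the days. KIF11, a motor of the mitotic spindle whose upstream sequence is printed above, was at 44.3, 47.7, 67.4 and 61 CPM at day 21 and 12.8, 12.5, 11.4, 8.53 and 11.9 CPM at day 30 (-2.27 ± 0.15 (SE), adjusted p = 4.46e-09). The member of the mitosis list that fell least was CENPH, also of the kinetochore (-0.57 ± 0.21 (SE), adjusted p = 0.0262), which was chosen after its values were seen. Its day 30 replicate 4, at 5.95 CPM, lay within the day 21 range of 5.06 to 6.49 CPM, and its call was lost without any 1 of 5 libraries (day 21 replicates 3 and 4 and day 30 replicates 1 to 3, adjusted p up to 0.0666).

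Among replication genes UHRF1, which copies DNA methylation marks to new strands, was at 38.3, 42.6, 41.2 and 42.5 CPM at day 21 and 8.54, 6.63, 8.94, 6.84 and 11.8 CPM at day 30 (-2.26 ± 0.16 (SE), adjusted p = 8.38e-09). MCM3, a subunit of the helicase that opens DNA, was at 94.5, 93, 89.1 and 100.2 CPM at day 21 and 36.3, 30.5, 41.8, 35.1 and 43.2 CPM at day 30 (-1.33 ± 0.10 (SE), adjusted p = 1.97e-08). MCM10, which helps start the forks, and RFC3, which loads the sliding clamp, were lower by 2.18 and 1.97 on the log2 scale. The 2 members that did not pass were CCNE1, a cyclin of the entry into S phase, and GINS3, a subunit of the replicative helicase complex, at -0.13 (adjusted p = 0.452) and 0.05 (adjusted p = 0.739).

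A pair of cell cycle inhibitors rose. CDKN1C, the inhibitor p57 known from cartilage growth, was at 87.1, 69, 52.5 and 71.4 CPM at day 21 and 269.9, 317, 314, 304 and 224 CPM at day 30 (2.03 ± 0.14 (SE), adjusted p = 7.69e-09). CDKN1A, the inhibitor p21, was at 27.5, 26.6, 27.3 and 27.1 CPM at day 21 and 54.9, 55.8, 65.2, 61 and 53.2 CPM at day 30, with the day 21 libraries within 1 CPM of each other (1.1 ± 0.09 (SE), adjusted p = 2.21e-08). Both were higher in each day 30 library than in any day 21 library. RBL1, the retinoblastoma relative p107, fell by 1.83, and CCND3, the cyclin D3, rose by 0.62 (5 rose, 2 fell and 7 did not pass of 14; 5 and 2 with replicates 1 and 2 alone). On the TPM scale CCND3 was at -0.05 as fitted, above the median of -0.35 over all genes. Of 16 histone genes tested 1 rose and 8 fell, and 0 and 7 with replicates 1 and 2 alone. H2AX, a histone of the DNA damage response, fell by 0.85 on the log2 scale, and many histone genes have near-identical copies and transcripts without a poly(A) tail, so their values are uncertain.

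Cartilage collagens rose with a larger spread among the day 30 libraries. Of 10 collagens 9 rose and 1 fell with all libraries (median log2 fold change 1.1), and 8 rose and 0 fell with replicates 1 and 2 alone (1.37). Over all genes tested 27.2% and 20.2% were higher. COL2A1, the main collagen of cartilage (ENSG00000139219, chromosome 12, 47972965 to 48004554, minus strand), was at 33640, 27390, 26480 and 32080 CPM at day 21 and 158300, 141500, 143400, 99220 and 66540 CPM at day 30 (2.03 ± 0.25 (SE), adjusted p = 3.47e-06). Replicates 4 and 5 were the lowest at day 30, at 99220 and 66540 CPM, and still above every day 21 library. COL9A1, a collagen on the surface of type II fibrils, was at 3212, 2846, 2064 and 2757 CPM at day 21 and 12950, 11110, 9029, 6742 and 5443 CPM at day 30 (1.74 ± 0.22 (SE), adjusted p = 4.38e-06), with the same libraries lowest. COL11A2, a collagen of the fibril core, rose by 1.57, and COL9A3, a partner of COL9A1, by 1.67. COL6A3, a chain of the pericellular type VI collagen, was the member that fell, and only with all libraries (-0.38 ± 0.15 (SE), adjusted p = 0.0463; -0.27, adjusted p = 0.262 with replicates 1 and 2 alone). With the length and GC offset COL6A3 was at 0.15 (adjusted p = 0.375), its transcripts are in the longest of the 5 groups, and its call was lost without any 1 of 7 libraries of the compared days (day 21 replicates 2 to 4 and day 30 replicates 2 to 5, adjusted p up to 0.117).

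**Figure D3:**
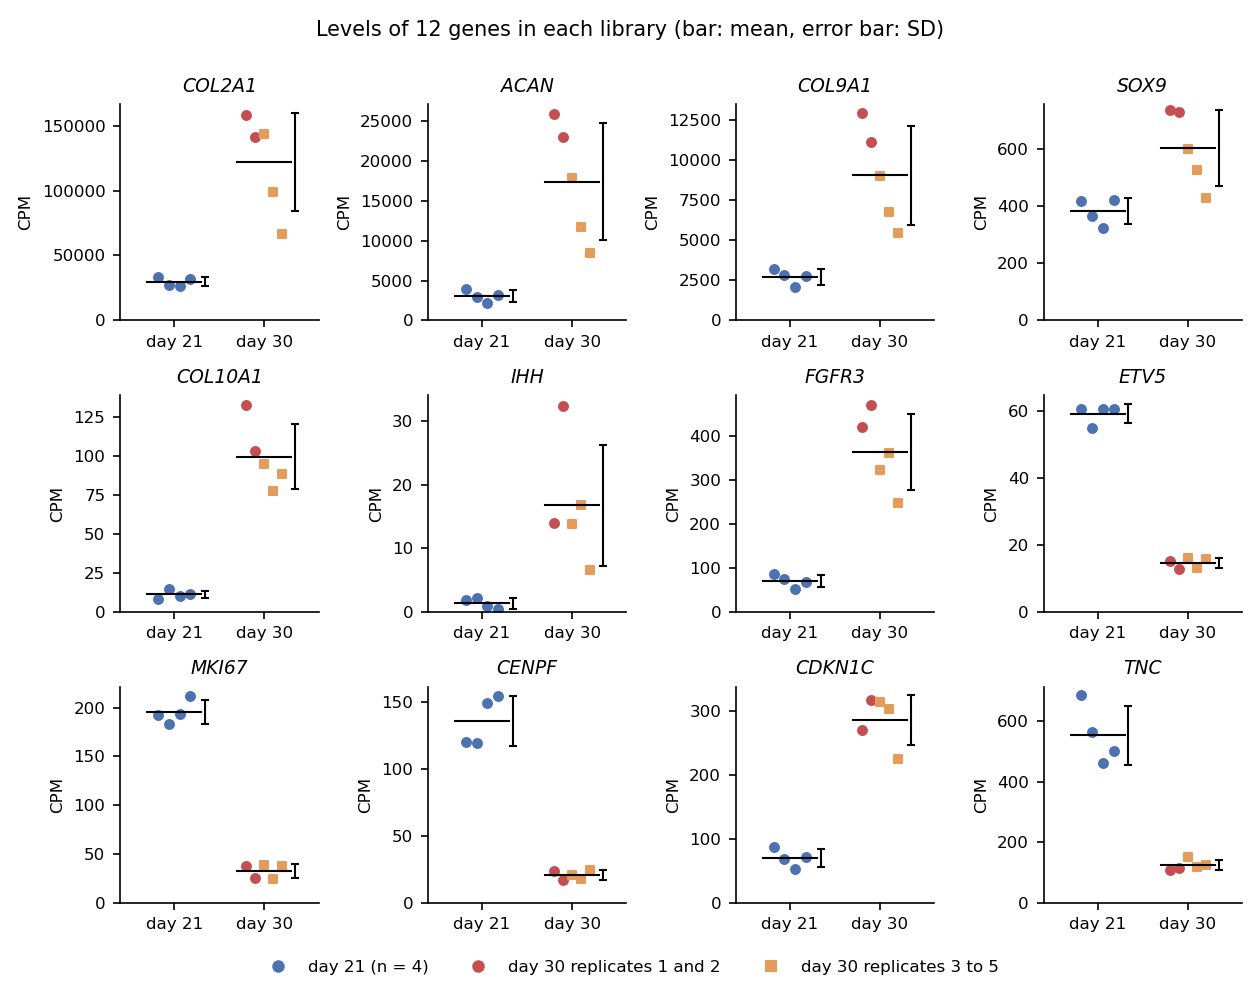
CPM of 12 genes (y axes, from 0) in each library of day 21 and day 30, with the mean as a bar and the SD as an error bar. COL2A1, ACAN and COL9A1 are higher in all 5 day 30 libraries with replicates 4 and 5 lowest, whereas MKI67, CENPF, ETV5 and TNC are lower in all 5 with little spread.

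The proteoglycans and glycoproteins of the matrix mostly rose, 22 of 31, while 7 fell and 2 did not pass (20 rose and 5 fell with replicates 1 and 2 alone). ACAN, the large proteoglycan aggrecan (ENSG00000157766, chromosome 15, 88803442 to 88875354, plus strand), was at 3937, 2900, 2223 and 3180 CPM at day 21 and 25940, 23040, 17930, 11720 and 8436 CPM at day 30 (2.51 ± 0.28 (SE), adjusted p = 1.46e-06). Replicates 4 and 5 were again the lowest at day 30, and all 5 were above day 21. HAPLN1, which links aggrecan to hyaluronan, was at 972, 977, 1063 and 1108 CPM at day 21 and 5856, 5618, 3796, 4075 and 2767 CPM at day 30 (2.1 ± 0.20 (SE), adjusted p = 1.57e-07), and MATN3, a matrilin of growth cartilage, rose by 2.03. SCRG1, a small secreted protein of differentiating chondrocytes, was at 32, 30.8, 25.2 and 30.6 CPM at day 21 and 301, 363, 278, 408 and 307 CPM at day 30 and had the largest log2 fold change of the list (3.48 ± 0.16 (SE), adjusted p = 2.17e-10). CHAD, the leucine-rich protein chondroadherin, rose by 3.17, SNORC, a transmembrane proteoglycan of cartilage, by 2.44, and COMP, a pentameric protein that binds collagen, by 2.5. Unlike ACAN, SCRG1 and SNORC were highest in replicate 4. HAPLN1, MATN3, COMP and VCAN were chosen after their values were seen.

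Members that fell included proteins of the younger matrix. VCAN, the proteoglycan versican of precartilage mesenchyme, was at 1006, 778, 1048 and 1061 CPM at day 21 and 230.2, 219, 115, 72.7 and 120.3 CPM at day 30 (-2.68 ± 0.27 (SE), adjusted p = 5.32e-07). It was lowest in replicates 3 to 5, and the change with replicates 1 and 2 alone was -2.13, adjusted p = 2.38e-07. HAPLN3, a link protein of other tissues, was at 119, 106, 96.2 and 110.5 CPM at day 21 and 34.3, 27.2, 46.3, 41.2 and 39.4 CPM at day 30 (-1.51 ± 0.12 (SE), adjusted p = 2.52e-08), with no overlap.

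Transcription factors of chondrocytes did not move together, with 5 of 17 higher and 10 lower (median -0.54, and -0.11 with the offset). SOX9, the master regulator of the lineage (ENSG00000125398, chromosome 17, 72121020 to 72126420, plus strand), was at 418, 366, 324 and 419 CPM at day 21 and 734, 727, 599.8, 525 and 428 CPM at day 30 (0.66 ± 0.14 (SE), adjusted p = 0.000918). Day 30 replicate 5 exceeded the highest day 21 library by less than 10 CPM. SOX8, its close relative, rose by 0.84, and WWP2, a ubiquitin ligase whose gene hosts a cartilage microRNA, by 1.26. SOX5, a partner of SOX9 at matrix genes, was at 132, 128, 146 and 164 CPM at day 21 and 109, 98.2, 48.7, 41.2 and 50.4 CPM at day 30 (-1.04 ± 0.24 (SE), adjusted p = 0.00175). Replicates 3 to 5 were well below replicates 1 and 2, and the change with replicates 1 and 2 alone was smaller (-0.48, adjusted p = 0.0128). SOX6, the other partner, fell with all libraries (-0.54 ± 0.15 (SE), adjusted p = 0.00594) but not with replicates 1 and 2 alone (-0.18, adjusted p = 0.192), and was at 0.09 with the length and GC offset (adjusted p = 0.427). SOX5 and SOX6 were chosen after their values were seen. With replicates 1 and 2 alone 4 of the 17 rose and 5 fell. SOX4 and SOX11, of immature mesenchyme and neural cells, fell by 1.97 and 1.36 on the log2 scale, and SOX11, whose transcripts are long, was at -0.76 with the offset.

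Hypertrophic cartilage genes had the highest median of the pathway lists (1.48), with 16 of 23 higher, 2 lower and 5 that did not pass (14 rose and 1 fell with replicates 1 and 2 alone). COL10A1, the collagen of hypertrophic chondrocytes (ENSG00000123500, chromosome 6, 116118923 to 116158747, minus strand), was at 8.42, 14.4, 10.2 and 11.1 CPM at day 21 and 133, 103, 94.9, 77.6 and 88.7 CPM at day 30 (3.17 ± 0.32 (SE), adjusted p = 5.19e-07). IHH, the Indian hedgehog signal of prehypertrophic cells (ENSG00000163501, chromosome 2, 219054420 to 219060467, minus strand), was at 1.83, 2.13, 0.828 and 0.34 CPM at day 21 and 14, 32.4, 13.8, 16.9 and 6.61 CPM at day 30 (3.68 ± 0.50 (SE), adjusted p = 3.56e-05), with replicate 2 highest at day 30. Both genes were higher in every day 30 library than in any day 21 library. PTH1R, which receives the parathyroid hormone-related signal, was at 49.4, 39.9, 20.2 and 25.2 CPM at day 21 and 229, 309, 279, 259.9 and 228 CPM at day 30 (2.95 ± 0.26 (SE), adjusted p = 1.07e-07). FOXA2, a transcription factor that acts in hypertrophy, was at 0.472, 0.304, 0.466 and 0.51 CPM at day 21 and 8.57, 8.04, 7.41, 7.93 and 5.15 CPM at day 30 (4.07 ± 0.21 (SE), adjusted p = 4.35e-10). S100A1, a calcium-binding protein, rose by 2.63, TGM2, a transglutaminase, by 2.04 and MEF2D, a transcription factor of the MEF2 family, by 1.26.

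Genes of later steps were mixed. RUNX2, a regulator of hypertrophy and bone, was at 49.1, 46.9, 39.6 and 34.3 CPM at day 21 and 49.2, 69.1, 36.4, 41.1 and 44 CPM at day 30 and did not pass with all libraries (0.17 ± 0.16 (SE), adjusted p = 0.358). With replicates 1 and 2 alone RUNX2 was called higher (0.46, adjusted p = 0.0248), and with the offset as well (0.53, adjusted p = 0.000955). MMP13, a collagenase of late hypertrophic cartilage, was at 22.3, 39.6, 53.8 and 55.7 CPM at day 21 and 56.6, 32.6, 52.6, 43 and 40.8 CPM at day 30, with overlapping ranges (0.08 ± 0.23 (SE), adjusted p = 0.8). SPP1, which encodes osteopontin, was at 21.8, 57.6, 109 and 112 CPM at day 21 and 43.9, 16.3, 30.4, 30.7 and 47 CPM at day 30 and missed the threshold (-1.15 ± 0.47 (SE), adjusted p = 0.0523). It was called lower without day 21 replicate 1 (adjusted p = 0.00724), day 30 replicate 5 (adjusted p = 0.0496), day 45 replicate 1 (adjusted p = 0.0296) or day 45 replicate 5 (adjusted p = 0.0457). The change stayed at -1.15 without either of these day 45 libraries, which are not part of the means compared. PHOSPHO1, a phosphatase of matrix vesicles, was at 0.667, 0.532, 0.621 and 0.765 CPM at day 21 and 8.34, 17.9, 6.9, 7.39 and 5.23 CPM at day 30 (3.81 ± 0.33 (SE), adjusted p = 9.34e-08), and SP7, the osteoblast factor osterix, rose by 2.88. ALPL, the phosphatase of mineralisation, was listed at 0 in day 30 replicate 5 and at 1.52 CPM in replicate 2, and it did not pass (2.19 ± 0.91 (SE), adjusted p = 0.0536). Without day 30 replicate 5 or 3 it was called higher (adjusted p = 0.0121 and 0.0418), and without day 45 replicate 1 or 4 as well (0.0433 and 0.0457). PTH1R, PHOSPHO1, SP7 and ALPL were chosen after their values were seen.

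The list of Hedgehog and PTHrP signalling holds ligands, receptors, transcription factors and targets, so its counts are not a count of targets. With all libraries 1 of 15 members was higher and 6 were lower, against 27.2% and 27.1% of all genes tested. With replicates 1 and 2 alone the counts were 2 and 6, against 20.2% and 22.6%. With the offset 5 were higher and 6 lower, and the median went from -0.26 to 0.06. PTCH1, the Hedgehog receptor and a direct target of the pathway, was at 38.3, 34.9, 28.2 and 30.9 CPM at day 21 and 57.4, 76.5, 29.96, 36 and 20.5 CPM at day 30. Replicates 1 and 2 were above every day 21 library, replicates 3 and 4 lay within the day 21 range and replicate 5 lay below it. PTCH1 did not pass with all libraries (0.41 ± 0.27 (SE), adjusted p = 0.216) and rose with replicates 1 and 2 alone (1.0, adjusted p = 2.56e-05) and with the offset (0.78, adjusted p = 0.0214). Without day 30 replicate 5 it was called as well (0.59, adjusted p = 0.0297). GLI3, the repressor of the pathway, and GLI2, its main activator, fell by 0.67 and 0.53 on the log2 scale, and by less with the offset (-0.21 and -0.27). GAS1, a co-receptor, was at 24.2, 22.2, 23.2 and 23.8 CPM at day 21 and 13.3, 11.6, 15.7, 11.3 and 11.9 CPM at day 30 (-0.87 ± 0.10 (SE), adjusted p = 2.03e-06). PTHLH, the parathyroid hormone-related protein, which was chosen after its values were seen, was low and fell by 0.59 (adjusted p = 0.0371), a call that was lost without any 1 of 7 libraries (all of day 21 and day 30 replicates 1, 2 and 4, adjusted p up to 0.0924).

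Genes that build the sulphated chains of proteoglycans rose in 18 of 33 cases and fell in 5 (20 rose and 4 fell with replicates 1 and 2 alone). PAPSS2, which makes the sulphate donor, was at 363, 334, 255 and 364 CPM at day 21 and 1668, 1557, 1141, 1124 and 898 CPM at day 30 (1.96 ± 0.18 (SE), adjusted p = 1.69e-07). CHST3, which sulphates chondroitin, was at 124, 112, 96.7 and 121 CPM at day 21 and 378, 320.2, 316, 237 and 200.2 CPM at day 30 (1.36 ± 0.15 (SE), adjusted p = 1.41e-06), and UGP2, which makes UDP-glucose, rose by 1.14. DSEL, an epimerase that turns chondroitin into dermatan sulphate, fell by 1.58 on the log2 scale, and by less with the offset (-0.80). Of 37 genes of collagen folding, export and crosslinking 21 rose and 2 fell (20 rose and 4 fell with replicates 1 and 2 alone). P4HA2, a subunit of the prolyl hydroxylase of collagen, was at 98.2, 83.3, 70.9 and 79.3 CPM at day 21 and 211, 217, 242, 186 and 179 CPM at day 30 (1.32 ± 0.12 (SE), adjusted p = 1.04e-07). PCOLCE2, an enhancer of procollagen cleavage, rose by 1.65 and MIA2, which serves the export of large cargo, by 0.74. ADAMTS14, a procollagen protease, went the other way and was at 30.9, 24.1, 18.9 and 16.1 CPM at day 21 and 3.41, 2.14, 4.03, 4.41 and 3.46 CPM at day 30 (-2.68 ± 0.26 (SE), adjusted p = 2.81e-07).

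Matrix proteases and their inhibitors were split, with 8 of 25 higher and 11 lower, against 27.2% and 27.1% of all genes tested. With replicates 1 and 2 alone the counts were 5 and 12, against 20.2% and 22.6%. TIMP4, an inhibitor of metalloproteinases, was at 6.39, 6.08, 8.07 and 7.79 CPM at day 21 and 49, 48.4, 45.6, 42.3 and 45.4 CPM at day 30 (2.7 ± 0.18 (SE), adjusted p = 4.28e-09), while its relative TIMP2 fell by 0.87 on the log2 scale. MMP9, a gelatinase of resorbed cartilage and bone, was at 159, 182, 150.2 and 210.1 CPM at day 21 and 26.2, 16, 39.9, 22.7 and 19 CPM at day 30 (-2.82 ± 0.36 (SE), adjusted p = 1.55e-05). ADAMTS9, a protease that cleaves versican and aggrecan, was at 130.3, 124, 159 and 147 CPM at day 21 and 32, 28, 32.1, 25.2 and 36.8 CPM at day 30 (-2.18 ± 0.17 (SE), adjusted p = 3.25e-08). None of these 4 genes overlapped between the days.

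Genes of perichondrium and fibrous tissue mostly fell or did not pass, with 3 of 27 higher and 13 lower (0 rose and 11 fell with replicates 1 and 2 alone). With the length and GC offset 6 were higher and 10 lower, and the median went from -0.26 to -0.07. FBN2, a fibrillin of early development, was at 1912, 1735, 2046 and 1983 CPM at day 21 and 901, 752, 663, 378 and 591 CPM at day 30 (-1.55 ± 0.18 (SE), adjusted p = 2.56e-06). COL5A2, a collagen of fibrous tissue, fell by 0.88 on the log2 scale, and TWIST1, a regulator of mesenchyme, by 1.07. With the offset FBN2 was at -0.97, COL5A2 at -0.4 and TWIST1 at -1.38. COL1A1, the type I collagen chain of bone and skin, was at 5868, 5850, 4663 and 4594 CPM at day 21 and 5960, 6819, 8160, 5203 and 7164 CPM at day 30 and did not pass (0.35 ± 0.16 (SE), adjusted p = 0.0803). Without day 30 replicate 4 it was called higher (0.43, adjusted p = 0.0344), and with the offset as well (0.57, adjusted p = 0.00155), whereas on log2(TPM + 1) limma called it lower at -0.45 (adjusted p = 0.0189), where the median of all genes was -0.35. Of 8 tendon genes 0 rose and 5 fell (0 and 3 with replicates 1 and 2 alone). TNC, a glycoprotein of tendon and young mesenchyme, was at 685, 563, 461 and 501 CPM at day 21 and 108, 116, 152, 119 and 126 CPM at day 30 (-2.15 ± 0.21 (SE), adjusted p = 2.94e-07), and SCX, the tendon transcription factor scleraxis, was at 45.7, 35, 35.7 and 41.8 CPM at day 21 and 10.8, 8.04, 19.4, 12.6 and 20.03 CPM at day 30 (-1.48 ± 0.21 (SE), adjusted p = 1.47e-05; -2.07, adjusted p = 1.66e-07 with replicates 1 and 2 alone).

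Genes of the superficial zone and the joint had 8 of 14 members higher and 3 lower (6 and 3 with replicates 1 and 2 alone). PRG4, the lubricant lubricin, was at 158, 209, 256 and 263 CPM at day 21 and 882, 631, 711, 496 and 496 CPM at day 30 (1.54 ± 0.22 (SE), adjusted p = 2.24e-05). NOG, an inhibitor of BMPs that marks joint formation, was at 13.3, 10.7, 12.3 and 15.9 CPM at day 21 and 72.3, 62.5, 50.5, 56.3 and 40.4 CPM at day 30 (2.11 ± 0.16 (SE), adjusted p = 1.56e-08), and ABI3BP, a secreted matrix protein, rose by 3.51. Of 12 bone matrix genes 6 rose and 5 fell, and 5 and 1 with replicates 1 and 2 alone. GDF5, a member of the joint list and the growth factor of the joint interzone, which was chosen after its values were seen, rose by 1.13 (adjusted p = 0.000134).

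Basement membrane genes fell in 15 of 19 cases and rose in 2, with the same counts with replicates 1 and 2 alone and a median of -0.89. The list holds long transcripts (median 5263 bases), and with the length and GC offset 14 were lower and 3 higher, with a median of -0.49. FRAS1, an anchor between epithelium and mesenchyme (ENSG00000138759, chromosome 4, 78057570 to 78544269, plus strand), had the largest fall of all genes named by rule. It was at 41.9, 31.3, 29.2 and 31 CPM at day 21 and 3.14, 1.74, 1.99, 0.793 and 1.61 CPM at day 30 (-4.14 ± 0.31 (SE), adjusted p = 2.13e-08). LAMA1, a laminin of early embryos, was at 7.87, 6.54, 6.65 and 8.39 CPM at day 21 and 1.11, 1.01, 1.85, 1.09 and 1.77 CPM at day 30 (-2.41 ± 0.22 (SE), adjusted p = 1.05e-07). COL4A6, a chain of type IV collagen, fell by 2.01 and LAMC1, a laminin chain of most basement membranes, by 0.83. Of 25 integrins and other matrix receptors 8 rose and 12 fell with all libraries, against 27.2% and 27.1% of all genes tested. With replicates 1 and 2 alone 9 rose and 9 fell, against 20.2% and 22.6%. With the offset 9 were higher and 8 lower, and the median went from -0.33 to 0.11. GPC1, a heparan sulphate proteoglycan of the cell surface, rose by 1.68 and SDC4, a syndecan, by 1.17, while ITGA2, a collagen-binding integrin, fell by 2.07 (-1.37 with the offset).

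Genes of FGF signalling mostly fell, while the receptor gene FGFR3 rose. Of 20 genes 4 rose and 14 fell (median -0.90; 4 rose and 13 fell with replicates 1 and 2 alone). Among receptors FGFR3, which restrains chondrocyte division, was at 84.6, 73.8, 51.3 and 67.2 CPM at day 21 and 420, 470.3, 321, 360.3 and 248 CPM at day 30 (2.39 ± 0.19 (SE), adjusted p = 2.87e-08). The lowest day 30 library, replicate 5, was nearly 3 times the highest day 21 library. Among ligands FGF18, which acts on chondrocytes through FGFR3, was at 9.84, 9.57, 10.7 and 8.02 CPM at day 21 and 1.99, 1.29, 3.24, 1.89 and 2.88 CPM at day 30 (-2.07 ± 0.22 (SE), adjusted p = 7.29e-07). ETV5, a transcription factor induced by FGF, was at 60.8, 54.9, 60.8 and 60.8 CPM at day 21 and 15.1, 12.8, 16.2, 12.9 and 15.7 CPM at day 30 (-2.03 ± 0.10 (SE), adjusted p = 3.27e-10), and its relatives ETV4 and ETV1 fell by 3.18 and 2.07. IL17RD, which feeds back on the pathway, was at 14.8, 13.1, 16 and 12.8 CPM at day 21 and 2.33, 2.98, 2.36, 1.83 and 2.73 CPM at day 30 (-2.53 ± 0.14 (SE), adjusted p = 1.08e-09). FGFR3 and FGF18 were chosen after their values were seen.

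WNT signalling had 8 of 30 members higher, close to the 27.2% of all genes, and 13 lower, against 27.1% (9 and 13 with replicates 1 and 2 alone). FRZB, a secreted WNT inhibitor of cartilage (ENSG00000162998, chromosome 2, 182833275 to 182867162, minus strand), was at 1.03, 1.11, 0.543 and 0.567 CPM at day 21 and 21.5, 20.2, 19, 21.2 and 14 CPM at day 30 (4.55 ± 0.28 (SE), adjusted p = 2.42e-09). WNT4 and WNT5B, ligands expressed near hypertrophic and prehypertrophic cells, rose by 2.52 and 1.05. LRP5, a WNT co-receptor, was at 289, 267, 249 and 316 CPM at day 21 and 120.5, 89.1, 106, 68.2 and 84.6 CPM at day 30 (-1.58 ± 0.14 (SE), adjusted p = 8.02e-08). BMP signalling was split as well, with 9 of 29 higher and 12 lower (11 and 9 with replicates 1 and 2 alone), and its median moved from -0.09 relative to all genes to 0.08 on the TPM scale. GREM1, a secreted BMP inhibitor, was at 85.5, 87, 57.7 and 77.4 CPM at day 21 and 566, 421, 344, 319 and 315 CPM at day 30 (2.35 ± 0.22 (SE), adjusted p = 2.1e-07). ID4, a target of BMPs, rose by 1.45, and the ligands BMP3 and BMP5 fell by 3.15 and 1.3 on the log2 scale, with BMP3 at -2.54 with the offset.

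TGF-beta signalling had 5 of 21 members higher and 12 lower, against 27.2% and 27.1% of all genes tested. With replicates 1 and 2 alone the counts were 5 and 9, against 20.2% and 22.6%. CCN2, the connective tissue growth factor of cartilage, was at 251, 264, 299.5 and 279.6 CPM at day 21 and 919.5, 861, 957, 838 and 758 CPM at day 30 (1.66 ± 0.23 (SE), adjusted p = 1.33e-05). The signal transducer gene SMAD3 fell by 0.84 on the log2 scale. Of 18 Notch genes 2 rose and 7 fell (1 rose and 5 fell with replicates 1 and 2 alone), with NOTCH3, a receptor, and HES1, a target, down by 1.46 and 1.02 on the log2 scale. Growth genes of the IGF pathway and imprinted genes rose in 8 of 23 cases and fell in 8, against the same shares of all genes. With replicates 1 and 2 alone 7 rose and 7 fell. Their median relative to all genes was -0.19 and became 0.11 on the log2(TPM + 1) scale. IGF2, the fetal growth factor, and H19, the noncoding RNA beside it, rose by 1.16 and 1.2. IGF2 was at 1921, 1745, 1515 and 1543 CPM at day 21 and 3857, 3707, 4574, 3410 and 3248 CPM at day 30. IGF1, the later growth factor, fell by 1.82, and IGF2 and IGF1 were chosen after their values were seen. IGFBP5, a binding protein of these factors, was at 1029, 1023, 783 and 1009 CPM at day 21 and 314, 284, 349, 261 and 378 CPM at day 30 (-1.6 ± 0.16 (SE), adjusted p = 2.91e-07). PAPPA2, a protease that cleaves it, fell by 2.18.

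Glycolysis and hypoxia genes rose in 31 of 37 cases, and 1 fell (median 0.90; 30 rose and 1 fell with replicates 1 and 2 alone). PGK1, an enzyme of glycolysis, was at 385, 375, 243 and 302 CPM at day 21 and 748, 716, 791, 765 and 757 CPM at day 30 (1.21 ± 0.12 (SE), adjusted p = 3.73e-07). ALDOC, an aldolase, was at 30.9, 27.9, 13.9 and 19.2 CPM at day 21 and 109.5, 106, 121, 108 and 86.9 CPM at day 30 (2.21 ± 0.19 (SE), adjusted p = 5.95e-08), and CA12, a carbonic anhydrase of hypoxic cells, rose by 2.59. VEGFA, a vascular growth factor known from hypoxic and hypertrophic cells and a member of the hypertrophic list, was at 113, 103, 31.8 and 30.2 CPM at day 21 and 286, 417, 332, 289 and 466 CPM at day 30 (2.36 ± 0.37 (SE), adjusted p = 8.27e-05). EPAS1, the hypoxia factor HIF-2 alpha, rose by 1.24, and HIF1A, the factor HIF-1 alpha, did not pass with all libraries (0.16 ± 0.17 (SE), adjusted p = 0.42) and rose with replicates 1 and 2 alone (0.55, adjusted p = 0.000819). On log2(TPM + 1) HIF1A was called lower as fitted (-0.55, adjusted p = 0.0472, where the median of all genes was -0.35). The member that fell was PFKM, the muscle form of phosphofructokinase (-0.37 ± 0.09 (SE), adjusted p = 0.00198). VEGFA, EPAS1, HIF1A and PFKM were chosen after their values were seen. The day 21 libraries were not alike on this list, since replicates 1 and 2 were both above replicates 3 and 4 for 30 of the 37 genes, against 23.2% of all genes tested. For 33 of the 42 mitosis genes the same pair was below, against 4629 of all 17838 genes. The part of this split in the comparison of days was not tested, and values of single libraries are given for that reason.

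The calls of ribosomal protein and respiratory chain genes depended on day 30 replicates 3 to 5. Of 78 ribosomal proteins 75 rose with all libraries (median 0.62), 12 with replicates 1 and 2 alone (0.15) and 31 with the offset (0.22). Of 73 respiratory chain subunits 53 rose with all libraries (0.46), 11 with replicates 1 and 2 alone (0.08) and 18 with the offset (0.06). Leaving out day 21 replicate 3 alone took the 53 to 34. These transcripts are short, and the length trend of replicates 3 to 5 moves with both lists. RPS3A, a protein of the small subunit whose reads pseudogene copies can share, was at 936, 917, 818 and 797 CPM at day 21 and 1209, 1345, 1555, 2660 and 2821 CPM at day 30 (1.15 ± 0.21 (SE), adjusted p = 0.000251; 0.55, adjusted p = 0.000764 with replicates 1 and 2 alone). COX7A2, a subunit of cytochrome oxidase, was at 47.3, 43.3, 38.6 and 46.6 CPM at day 21 and 64.2, 69.3, 89.6, 145 and 126 CPM at day 30 (1.17 ± 0.20 (SE), adjusted p = 0.000121; 0.59, adjusted p = 0.000907 alone). In both, replicates 4 and 5 were far above replicates 1 and 2. NDUFS6, a subunit of complex I, did not pass with all libraries (0.06, adjusted p = 0.756) and fell with replicates 1 and 2 alone (-0.45, adjusted p = 0.0118).

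Cholesterol synthesis genes rose in 11 of 25 cases and fell in 3 (10 and 4 with replicates 1 and 2 alone). DHCR7 and MVD, enzymes of the pathway, rose by 0.74 and 0.73. Of 21 genes of fatty acids 8 rose and 4 fell (5 and 3 with replicates 1 and 2 alone). Over all genes tested 27.2% were higher and 27.1% lower (20.2% and 22.6% with replicates 1 and 2 alone). CPT1A, which brings fatty acids into mitochondria, was at 43.5, 39, 52.7 and 50.8 CPM at day 21 and 8.38, 6.18, 6.99, 5.16 and 10.2 CPM at day 30 (-2.65 ± 0.22 (SE), adjusted p = 5.2e-08), and FABP3, a fatty acid binding protein, rose by 1.55.

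Stress lists differed from each other. Of 27 genes of the unfolded protein and amino acid response 14 rose and 4 fell (15 rose and 2 fell with replicates 1 and 2 alone). DDIT3, a transcription factor of that response, was at 3.95, 4.05, 3.34 and 3.88 CPM at day 21 and 18.6, 19.9, 25.7, 26.8 and 28.9 CPM at day 30 (2.66 ± 0.17 (SE), adjusted p = 2.82e-09). ASNS, which makes asparagine, was at 49.6, 50.6, 35.2 and 35.1 CPM at day 21 and 130.1, 131, 109, 129.8 and 127 CPM at day 30 (1.56 ± 0.13 (SE), adjusted p = 3.96e-08), and TRIB3, a pseudokinase induced by stress, rose by 1.91. HERPUD1, of protein degradation at the endoplasmic reticulum, rose by 0.99. Immediate early genes, which respond to handling as well as to signals, rose in 12 of 23 cases and fell in 4 (11 and 4 with replicates 1 and 2 alone). EGR3 was among the members that fell, and EGR1 and EGR2, counted in the tendon list, fell with all libraries as well. FOS was at 16.3, 15.7, 12.8 and 12.8 CPM at day 21 and 42.9, 43.4, 43, 33 and 34.1 CPM at day 30 (1.45 ± 0.15 (SE), adjusted p = 7.16e-07), JUNB rose by 1.07, and both encode subunits of the factor AP-1. Of 15 heat shock genes 3 rose and 4 fell with all libraries, no larger shares than the 27.2% and 27.1% of all genes. The counts were the same with replicates 1 and 2 alone, where 20.2% of all genes were higher and 22.6% lower. With the length and GC offset 3 rose and 9 fell (median -0.3), against 27.4% and 27.1% of all genes. The smallest adjusted p of the list was that of CRYAB, the chaperone alpha-B crystallin, at 6.39, 9.88, 5.66 and 4.93 CPM at day 21 and 49.8, 59.7, 82.8, 74.2 and 107 CPM at day 30 (3.47 ± 0.23 (SE), adjusted p = 6.2e-09). DNAJA1 was among the members that fell. Of 23 interferon response genes 6 rose and 10 fell (5 and 10 with replicates 1 and 2 alone). IFIT3 and OAS3, antiviral proteins, fell by 2.08 and 2.22, while HLA-C, an antigen-presenting molecule whose reads related genes can share, rose by 2.12. Of 13 inflammatory genes 3 rose and 2 fell with all libraries, again below the shares of all genes. With replicates 1 and 2 alone 3 rose and 1 fell, and with the offset 4 rose and 3 fell. Of 18 p53 response genes 3 rose and 7 fell (5 and 6 with replicates 1 and 2 alone, 6 and 5 with the offset). GADD45A, a growth arrest gene, was up by 1.86, while TP53INP1 and ZMAT3 were among the members that fell with all libraries. Of 6 metallothioneins and zinc transporters tested 3 rose and 0 fell (2 and 0 with replicates 1 and 2 alone).

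Regulators of fetal stages fell in 7 of 9 cases and rose in 0 (5 and 0 with replicates 1 and 2 alone). HMGA2, a chromatin protein of embryonic tissue, was at 125, 129, 176 and 147 CPM at day 21 and 27.6, 22.1, 22.3, 18.9 and 22.6 CPM at day 30 (-2.67 ± 0.14 (SE), adjusted p = 3.27e-10). IGF2BP1, an RNA-binding protein of fetal cells, was at 137, 129, 137 and 126 CPM at day 21 and 56.5, 58.5, 48.5, 44 and 54 CPM at day 30 (-1.34 ± 0.10 (SE), adjusted p = 1.22e-08). LIN28B, which blocks the let-7 microRNAs, fell by 2.06 (-1.38, adjusted p = 0.00374 with replicates 1 and 2 alone). Of 22 positional transcription factors of mesenchyme 3 rose and 10 fell (1 and 8 with replicates 1 and 2 alone). MEOX1, of the somites, was at 16.1, 11.8, 10.8 and 13.5 CPM at day 21 and 1.38, 1.12, 2.04, 2.08 and 2 CPM at day 30 (-2.91 ± 0.21 (SE), adjusted p = 8.98e-09), and MSX2, of limb and head mesenchyme, fell by 0.85. None of the 34 HOX genes listed had enough counts to be tested.

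**Figure D4:**
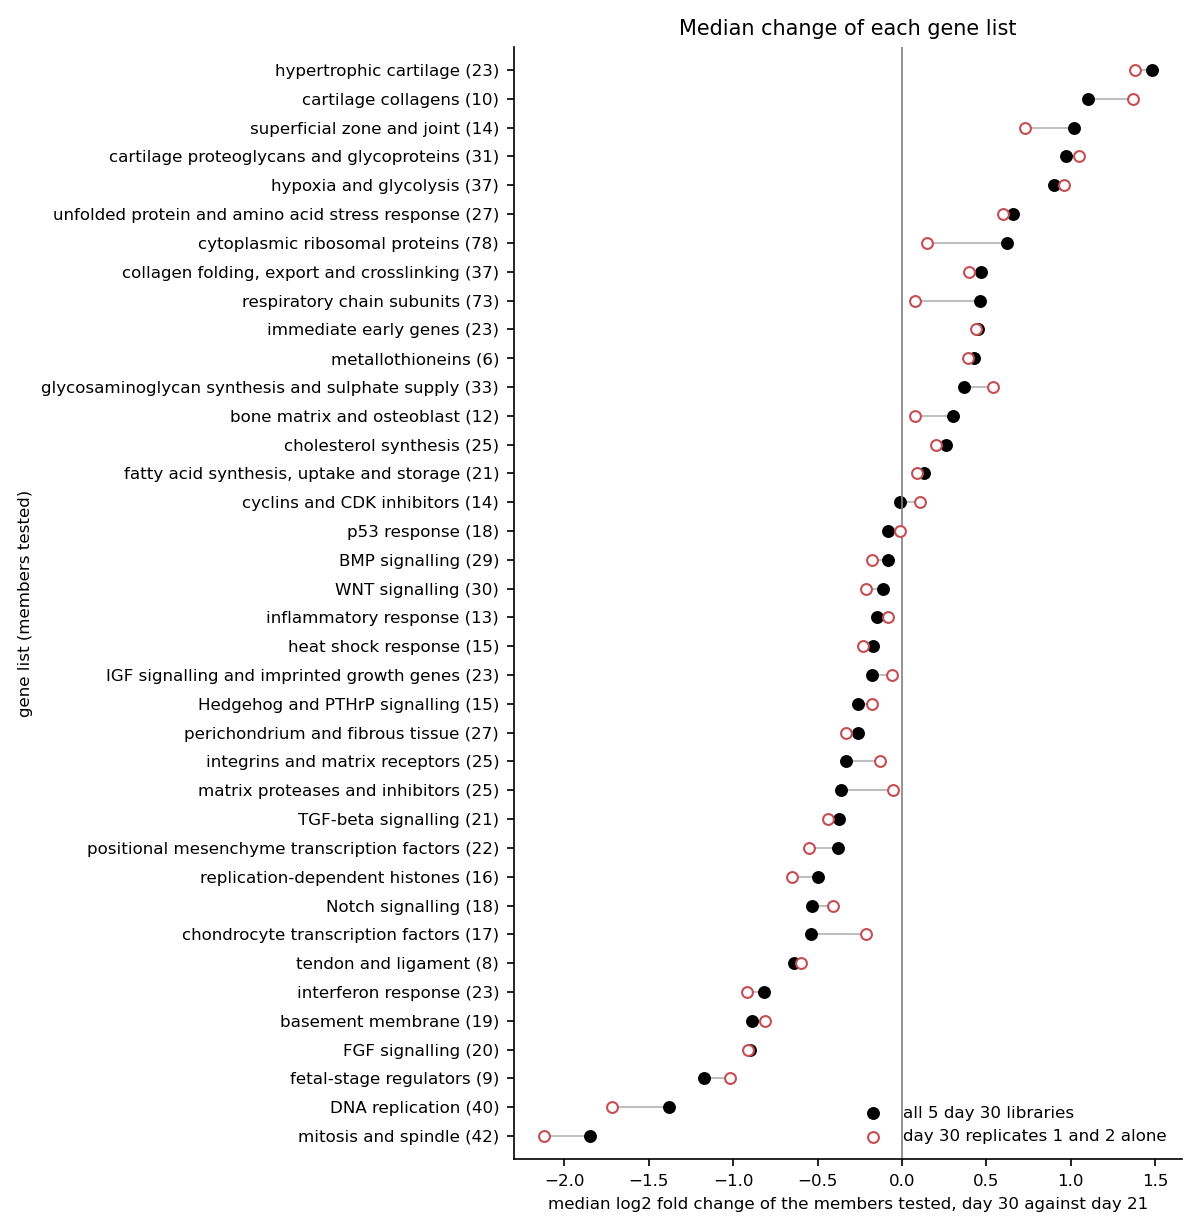
Median log2 fold change of the members tested (x axis) for 38 gene lists (y axis, with the number tested), with all 5 day 30 libraries (filled) and with replicates 1 and 2 alone (open). Mitosis and DNA replication lie lowest at -1.85 and -1.38 and hypertrophic cartilage highest at 1.48, and ribosomal proteins and respiratory chain subunits move from 0.62 and 0.46 to 0.15 and 0.08.

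The largest rises and falls were named by a rule that asked for a call in both fits, no overlap and at least 10 CPM on average in the higher group. TRIM53AP, a pseudogene with near-identical relatives whose reads may be shared, had the largest rise (6.38) and is uncertain. ZNF385B, a zinc finger protein, was at 0.889, 0.507, 0.336 and 0.227 CPM at day 21 and 34.3, 45.2, 24.1, 33.1 and 21.1 CPM at day 30 (6.0 ± 0.31 (SE), adjusted p = 4.66e-10). NDUFA4L2, a mitochondrial protein induced by hypoxia, was at 10.3, 9.4, 1.06 and 0.822 CPM at day 21 and 177, 151, 261, 197 and 177 CPM at day 30 (5.15 ± 0.64 (SE), adjusted p = 2.1e-05), and day 21 replicates 1 and 2 were near 10 CPM where replicates 3 and 4 were near 1. FGFBP2, a secreted protein known from cartilage, was at 3.78, 3.06, 0.957 and 1.1 CPM at day 21 and 72.2, 92.6, 75.9, 92.2 and 46.1 CPM at day 30 (5.08 ± 0.35 (SE), adjusted p = 2.13e-08). SERPINA1, the protease inhibitor alpha-1 antitrypsin, was at 1.36, 1.52, 1.11 and 1.25 CPM at day 21 and 28, 34.3, 34.2, 31.7 and 20.8 CPM at day 30 (4.5 ± 0.22 (SE), adjusted p = 3.27e-10). Carboxypeptidase M, a membrane enzyme, rose by 4.31, SCUBE1, a secreted protein with EGF domains, by 4.28, and PYGM, the muscle form of glycogen phosphorylase, by 4.07. DDIT4L, an inhibitor of mTOR, rose by 4.91, and SMIM5, SPAG4, C2orf72 and FER1L4 by 4.35, 4.21, 4.15 and 4.3.

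Among the largest falls IQGAP2, a scaffold of the cytoskeleton, was at 53.3, 52.2, 69.4 and 59.2 CPM at day 21 and 4.52, 3.82, 3.94, 3.77 and 7.04 CPM at day 30 (-3.65 ± 0.18 (SE), adjusted p = 3.27e-10). CBLN2, a secreted synapse organiser, was at 35.4, 33, 35.6 and 46.6 CPM at day 21 and 3.18, 3.2, 3.98, 2.53 and 5.42 CPM at day 30 (-3.35 ± 0.22 (SE), adjusted p = 4.75e-09). MMP15, a metalloproteinase of the cell membrane, was at 40.6, 34.7, 28.3 and 30.6 CPM at day 21 and 4.09, 3.2, 5.51, 3.82 and 4.46 CPM at day 30 (-2.98 ± 0.16 (SE), adjusted p = 4.47e-10). Every day 30 library was below every day 21 library in these 3 genes. FSTL5, a follistatin-like protein, fell by 3.25, NDST3, which sulphates heparan chains, by 3.16, THSD7A by 3.13, CLSTN2 by 2.92 and the kinase gene SBK1 by 2.89 on the log2 scale. With the offset THSD7A was at -2.44 and CLSTN2 at -2.29.

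**Figure D5:**
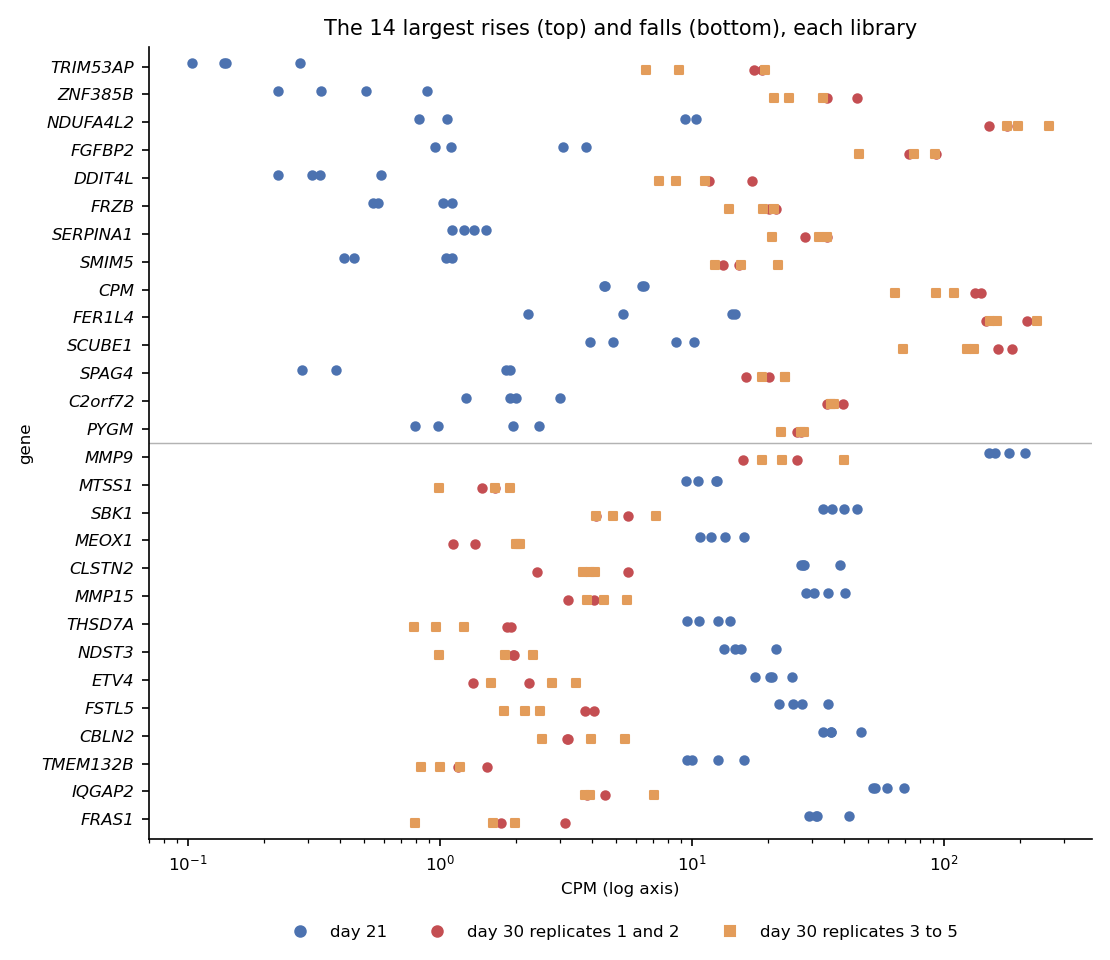
CPM on a log axis (x axis) of the 14 genes with the largest rises and the 14 with the largest falls (y axis), 1 point per library. No day 30 library overlaps a day 21 library in any of the 28 genes, since the rule asked for that.

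Markers of other cell types were checked across the same libraries, since a pellet can hold cells that are not chondrocytes. Of 26 defining markers, 2 for each of 13 other cell types, 24 had too few counts to be tested, and none of these 24 exceeded 0.555 CPM. None was listed for smooth muscle, and some other members of the marker lists had higher levels. CDH5 of endothelium, SOX1 of neural progenitors, TYR of melanocytes and ADIPOQ of adipocytes were listed at 0 in all 9 libraries. PTPRC of blood cells reached at most 0.115 CPM, MYOD1 of skeletal muscle 0.0562 CPM and NANOG of stem cells 0.0387 CPM. The summed level of the 3 tested stem cell markers went from 15.4 to 19.2 CPM at day 21 to 3.77 to 6.31 CPM at day 30, and all 3 fell, among them DPPA4, a chromatin protein, by 1.74. The defining stem cell gene POU5F1, which had too few counts to be tested, was at 0.0506 to 0.194 CPM at day 21 and 0.192 to 0.555 CPM at day 30. Summed neuron markers were at 200 to 213 CPM at day 21 and 136.5 to 189 CPM at day 30, with 1 of 10 higher and 4 lower (1 and 5 with replicates 1 and 2 alone). Of 6 Schwann cell and glia markers 2 were higher, GFAP (1.86 ± 0.34 (SE), adjusted p = 0.000209) and S100B (0.70 ± 0.21 (SE), adjusted p = 0.00848; 0.25, adjusted p = 0.401 with replicates 1 and 2 alone), and 2 lower (1 and 2 alone). ERBB3, a receptor kinase of Schwann cells and one of the markers that fell, was at 111, 92.3, 80.8 and 93.7 CPM at day 21 and 19.6, 19.3, 17.4, 17.3 and 16.7 CPM at day 30 (-2.39 ± 0.14 (SE), adjusted p = 1.21e-09), while SOX10, their transcription factor, reached at most 0.594 CPM. Summed smooth muscle markers were, in the same order, at 461 to 525 CPM and 251 to 577.5 CPM, with 1 of 9 higher and 0 lower. With replicates 1 and 2 alone, where the sum was 251 to 262.5 CPM, 1 was higher and 2 were lower, among them TAGLN, an actin-binding protein (-1.1, adjusted p = 8.63e-05). The 4 tested skeletal muscle markers summed to 13.3 to 15.8 CPM and 25.7 to 45.8 CPM, with 2 higher and 1 lower (2 and 1 with replicates 1 and 2 alone). TNNT3, a troponin, was the most raised (3.05 ± 0.26 (SE), adjusted p = 8.02e-08), and the embryonic myosin MYH3 was the member that fell (-0.47 ± 0.18 (SE), adjusted p = 0.0371; -0.20 with the offset, adjusted p = 0.365), a call lost without any 1 of 7 libraries (all of day 21 and day 30 replicates 1, 2 and 4, adjusted p up to 0.0911). The 3 tested liver and endoderm markers summed to 2.21 to 2.69 CPM and 23.8 to 37.3 CPM, the latter mostly SERPINA1, with 2 higher and FOXA1, a transcription factor of endoderm, lower (-2.41 ± 0.66 (SE), adjusted p = 0.0052; -2.17, adjusted p = 0.0532 with replicates 1 and 2 alone). The defining liver genes ALB and AFP were at most 0.297 and 0.0384 CPM. Of 5 epithelium markers 3 rose and 2 fell, KRT8 by 0.63 (2 and 2 with replicates 1 and 2 alone). Of 5 endothelium markers 2 rose and KDR fell (1 and 1 alone), while ERG, at means of 271 and 241 CPM, did not pass. Among 3 blood and macrophage markers CD68 rose by 2.91 and 1 fell (1 and 0 alone). Of 2 neural progenitor markers FABP7 rose by 3.27, while NES, at means of 119.5 and 131 CPM, did not pass. Of 4 adipocyte markers 2 rose and 0 fell (2 and 1 alone). The part of other cell types in the changes above was not tested.

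Of genes with at least 10 CPM whose call rested on replicates 3 to 5, the 6 with the largest change included 4 nuclear copies of mitochondrial genes. MTATP6P1 was at 764, 779, 636 and 602 CPM at day 21 and 723, 1192, 1662, 2716 and 3102 CPM at day 30 (1.43 ± 0.32 (SE), adjusted p = 0.00139; 0.45, adjusted p = 0.0988 with replicates 1 and 2 alone). MTRNR2L12, MTRNR2L8 and MTND5P11 were likewise highest in replicates 4 and 5, and as copies they share sequence with mitochondrial transcripts, so the origin of their reads is uncertain. RN7SK, a short noncoding RNA without a poly(A) tail, was at 13.9, 6.61, 10.7 and 1.87 CPM at day 21 and 11.7, 10.6, 24.8, 39.2 and 59.5 CPM at day 30 (1.82 ± 0.58 (SE), adjusted p = 0.017; 0.42, adjusted p = 0.598 alone). These values move with the length trend of the same libraries, and the source of either was not tested.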

How the data were processed

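RNA of whole pellets was sequenced from libraries made with a kit that does not mark strand, so a gene and its antisense partner share reads where they overlap. The deposited gene tables hold the authors' expected counts, TPM and FPKM per gene, and transcript lengths, per the file headers, and FPKM was not used. The submitters' processing notes name STAR 2.4.2a, RSEM 1.2.25 and the build GRCh38, without settings, and the release of the annotation was not found in the labels or headers. Expected counts were rounded and tested with edgeR 4.0.16 (R 4.3.3; TMM scaling, filterByExpr, quasi-likelihood F-test, Benjamini-Hochberg adjusted p below 0.05) on all 14 libraries. The day 45 libraries enter the filter, the scaling, the offset and the estimate of the spread, but not the means compared. Gene positions are from a GENCODE annotation of GRCh38. SEs are the absolute log2 fold change divided by the square root of F. CPM are expected counts scaled to the TMM-adjusted library total. The test was checked on simulated counts of days 21 and 30. It recovered 56.7% of genes changed by 1.5-fold and 100% of those changed by 2-fold, and 35.8% and 91% with day 30 replicates 1 and 2 alone. The simulation had the same spread for every gene, few changed genes and no length trend. It thus does not cover these features of the data. Alternatives were limma 3.58.1 on the deposited TPM, DESeq2 1.42.0, a spline offset for length and GC, other filters, a replicate block and leaving out each library. The genes named were the anchors, the 14 largest rises and falls, the 4 members of each list with the smallest adjusted p, list members that changed direction between fits and the 6 largest changes resting on day 30 replicates 3 to 5, of which some are left out of the text. Members, lists and the genes said to be chosen after their values were seen were picked with earlier results of these data known.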

Additional observations from a re-analysis of the deposited data

Results flagged for a closer look

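In 13 of 346 groups of values checked for the genes named, 1 library stood apart from the others of its day by the gap to its nearest neighbour, and chance gives about 1 in 20. At day 21 these were FRAS1 in replicate 1 (41.9 CPM), ETV5, SP7 and ALPL in replicate 2 (54.9, 1.24 and 0.279 CPM), SOX8 and IGFBP5 in replicate 3 (59.8 and 783 CPM) and CLSTN2 and ID4 in replicate 4 (38.7 and 23.6 CPM). At day 30 they were PHOSPHO1 in replicate 2 (17.9 CPM), ASNS in replicate 3 (109 CPM), OAS3 in replicate 4 (0.645 CPM) and IQGAP2 and PCOLCE2 in replicate 5 (7.04 and 26.3 CPM). Except for ALPL, the libraries of the days did not overlap in any of these genes with the library in place.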

How the results depend on the processing

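Of 172 genes named with values, 141 kept their direction and their side of the threshold under all 31 other settings. On log2(TPM + 1) limma called 1788 genes higher and 9032 lower, with 425 higher by over 2-fold, and on log2(TPM + 0.1) it called 1749 and 8892, with 821 higher and 4027 lower by over 2-fold. Tested against a 1.5-fold change, 3705 genes were called, 1751 higher and 1954 lower, since that test asks for a larger change. Leaving out 1 library at a time gave 8768 to 9938 genes called, 4345 to 4917 higher and 4423 to 5021 lower, with 1684 to 1953 higher and 1698 to 2021 lower by over 2-fold. The difference in the share of the 10 most abundant genes was then 9.56 to 12.1 percentage points, and with day 30 replicates 1 and 2 alone 14.6 (exact permutation p = 0.133, with fewer samples). With the day 45 library of conflicting labels placed at day 30, 4125 genes were higher and 4103 lower. With the replicate number as a block 8872 genes were called, 4356 higher and 4516 lower. Same-numbered libraries of the days had correlations of deviations of -0.20, 0.02, -0.25 and 0.03, so the numbers were not taken as pairs. Directions turned for 6 genes, and the cause was not tested. On the TPM scales these were COL1A1 (-0.45 on both), CCND3 (-0.05 on both), HIF1A (-0.55 and -0.56) and NDUFS6 (-0.50 on both). NDUFS6 was also at -0.45 with day 30 replicates 1 and 2 alone, at -0.44 with these and days 21 and 30 only, and at -0.48 with the length and GC offset. The offset turned SOX6 (0.09) and COL6A3 (0.15), and with replicates 1 and 2 alone, an alternative chosen after seeing the data, it gave 0.17, 0.09 and, for NDUFS6, -0.58. COL6A3 was at 0.27 with the day 45 library placed at day 30. The day 30 depth of at least 18183776 counts limits genes near 1 CPM most.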

Other observations

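The day 21 libraries split in ways that were noticed only after their values were seen, and no test was made of it. In the hypoxia and glycolysis list replicates 1 and 2 were above replicates 3 and 4 in 30 of 37 genes (81.1%, against 23.2% of all genes), with a median log2 ratio of 0.50. ADM, a vasodilator peptide induced by hypoxia, was at 1.89, 0.912, 0.233 and 0.17 CPM and STC2, a secreted glycoprotein of stressed cells, at 27.5, 22.3, 3.28 and 4.33 CPM in replicates 1 to 4. Day 30 levels were higher than every day 21 library, at 10.8, 12.2, 13.5, 8.58 and 12 CPM for ADM and 123, 185, 119.8, 121 and 79.5 CPM for STC2. In the mitosis list the same 2 replicates were below the others in 33 of 42 genes (78.6%, against 4629 of 17838 over all genes), with a median log2 ratio of -0.32. Of 10 cartilage collagens 6 were higher in replicates 1 and 2, and of 78 ribosomal proteins 9.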
